A study of Mus musculus with 10 samples.

Results

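The TRIM (tripartite motif) genes measured here were the protein-coding mouse genes whose symbol is Trim followed by digits and an optional letter. Of 68 such genes among the 48709 genes of the count tables, 40 had 10 or more counts in at least 2 libraries and are described here. Over the whole series, 14331 of 21695 protein-coding genes met this limit. These 40 genes were chosen by their counts, so their levels are given as a description without a test. The other 28 genes stayed below that limit, 4 of them (Trim30c, Trim52, Trim54 and Trim60) at 0 counts in all 10 libraries. Just inside the limit were Trim6 and Trim72, with 10 or more counts in 2 libraries each, and Trim34a, in 3 libraries. Just outside were Trim34b, with 10 or more counts in 1 library and at most 15, and Trim30d, in 1 library with 10.

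The cells were primary cultures of mouse hippocampal neurons given lipid nanoparticles on day 10 in vitro and collected on day 12, after 48 h. The cargo was anti-miR-409-5p (4 libraries), which inhibits miR-409-5p, or anti-miR-501-3p (4 libraries), which inhibits miR-501-3p, or scramble RNA (control, 2 libraries), so the control cells also received nanoparticles and RNA. The series asks how silencing of these exercise-induced microRNAs affects neuronal homeostasis. Strain, sex and the number of cultures are not given in the sources used here, and the labels do not say whether replicates are separate cultures, so p-values measure only the spread between libraries, which may be technical.

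TRIM proteins carry a RING domain, 1 or more B-box zinc fingers and a coiled coil, and most act as ubiquitin ligases that mark other proteins for degradation or for a change of activity. The C-terminal part, which differs between members, selects the partner and divides the family into structural classes. In neurons, members are known for roles in axon guidance, the axon initial segment and neurofilament turnover, while other members are known for silencing of chromatin or for innate immunity. A microRNA represses transcripts through its seed (bases 2 to 8), which pairs with sites in the 3' untranslated region (3' UTR) of the transcript. An anti-miR binds the microRNA and blocks it.

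The mature microRNAs that the inhibitors target are shown because the sites searched in the TRIM transcripts follow from their seeds, here in capitals. Both sequences are from RefSeq (GRCm38.p6), at chr12:109743172-109743194 on the plus strand for miR-409-5p and chrX:7241270-7241291 on the minus strand for miR-501-3p.
mmu-miR-409-5p: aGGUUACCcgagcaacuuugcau
mmu-miR-501-3p: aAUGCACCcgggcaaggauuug
The sites searched were GGTAACC and GTAACCA for miR-409-5p and GGTGCAT and GTGCATA for miR-501-3p, on the transcript strand. The first form of each pairs with bases 2 to 8 (7mer-m8), the second pairs with all but the last of these and has an A opposite base 1 (7mer-A1), and an 8mer holds both.

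Seed sites of miR-409-5p stood in the longest annotated 3' UTR of 7 of 39 tested TRIM genes (17.9%), against 9.85% of 14212 tested genes with a 3' UTR. Seed sites of miR-501-3p stood in 7 of 39 TRIM genes as well (17.9%), against 13.0% of all. The 3' UTRs of the 39 TRIM genes were longer, with a median of 1962 nt against 1219 nt over all 14212 genes. Of the genes with a site, 5 passed the test described below under the matching inhibitor, and their sites are printed with the match in capitals, 5' to 3' on the transcript strand, in windows of 30 nt from the GENCODE M21 transcripts (GRCm38). The first 4 lines hold miR-409-5p sites and the last 3 lines miR-501-3p sites.
Trim2, 7mer-A1, chr3:84164948-84164977, minus strand: tatttctgaatGTAACCAtttctttaaaaa
Trim2, 7mer-A1, chr3:84161706-84161735, minus strand: ctttagtctctGTAACCAaataagcccccg
Trim2, 7mer-A1, chr3:84161560-84161589, minus strand: aatagcgggacGTAACCAggtatatggagc
Trim45, 7mer-m8, chr3:100931594-100931623, plus strand: aagtcgggccaGGTAACCctgaagctagca
Trim23, 7mer-A1, chr13:104203075-104203104, plus strand: ctcctaatactGTGCATAatagttagatcc
Trim37, 7mer-A1, chr11:87219324-87219353, plus strand: gaagcgtggatGTGCATAggagagcacccc
Trim27, 8mer, chr13:21194141-21194170, plus strand: tcttggtgctaGGTGCATAtatctaagata
Under anti-miR-409-5p, 1 of the 7 genes with a miR-409-5p site rose and 1 fell, against 31.2% and 7.36% of all genes with such a site, and under anti-miR-501-3p, 2 of the 7 with a miR-501-3p site rose and 1 fell, against 33.4% and 9.99%. Trim2 has 3 sites for miR-409-5p and rose under anti-miR-409-5p, while Trim45 has 1 and fell. Trim23 and Trim37 each have a site for miR-501-3p and rose under anti-miR-501-3p, while Trim27 has the 8mer and fell. Each of the 3 genes that rose also rose under the other inhibitor, for which Trim2, Trim23 and Trim37 hold no site in this 3' UTR. The remaining genes with a site (Trim9, Trim15, Trim25, Trim66 and Trim71 for miR-409-5p, and Trim9, Trim32, Trim71 and Trim72 for miR-501-3p) did not pass the test under the matching inhibitor.

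Medians were also taken across the transcriptome, where genes with sites for both microRNAs were not set apart. Genes with a miR-409-5p site had a median log2 fold change of 0.069 under anti-miR-409-5p and 0.072 under anti-miR-501-3p, and genes without one had -0.033 and -0.036. Genes with a miR-501-3p site had medians of 0.075 under anti-miR-409-5p and 0.080 under anti-miR-501-3p, against -0.036 and -0.040 without one. Genes with a site also had a lower median GC content (47.5% against 50.7% for miR-409-5p, 47.1% against 50.8% for miR-501-3p) and longer 3' UTRs (2681 nt against 1099.5 nt, and 2560 nt against 1065 nt). The part of these properties in the medians was not tested, and a matching site is a description of the sequence and not evidence of binding.

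Library totals lay between 22254788 and 32096808 counts. The 40 TRIM genes together held 0.307% to 0.321% of the counts of a library. Their summed level was 3177 to 3219 CPM (counts scaled by library size and TMM factor) under anti-miR-409-5p, 3113 to 3180 CPM under anti-miR-501-3p and 3057 and 3077 CPM in control. Levels of different genes are compared below as CPM per kb of the longest coding transcript, a scale that assumes that transcript for every gene.

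A small group of genes supplied most TRIM transcripts. In control, Trim35 stood highest with 85.1 and 84.9 CPM per kb. Next came Trim9 (71.3 and 71.5 CPM per kb), Trim32 (71.1 and 71.5) and Trim28 (67.6 and 63.4). Trim44, Trim37, Trim2, Trim3 and Trim46 followed, with means of 56.4, 55.7, 52.8, 44.1 and 42.5 CPM per kb. The control libraries of Trim9 and Trim32 overlapped, as did those of Trim44 and Trim37, of Trim37 and Trim2, and of Trim3 and Trim46, so the order within each of these pairs is not resolved. These 9 genes exceeded 40 CPM per kb and held 77.3% of the summed TRIM CPM in control. Another 7 genes lay between 10 and 40 CPM per kb, 11 between 1 and 10, and 13 below 1, down to Trim6 at 0.0532 CPM per kb.

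**Figure D1:**
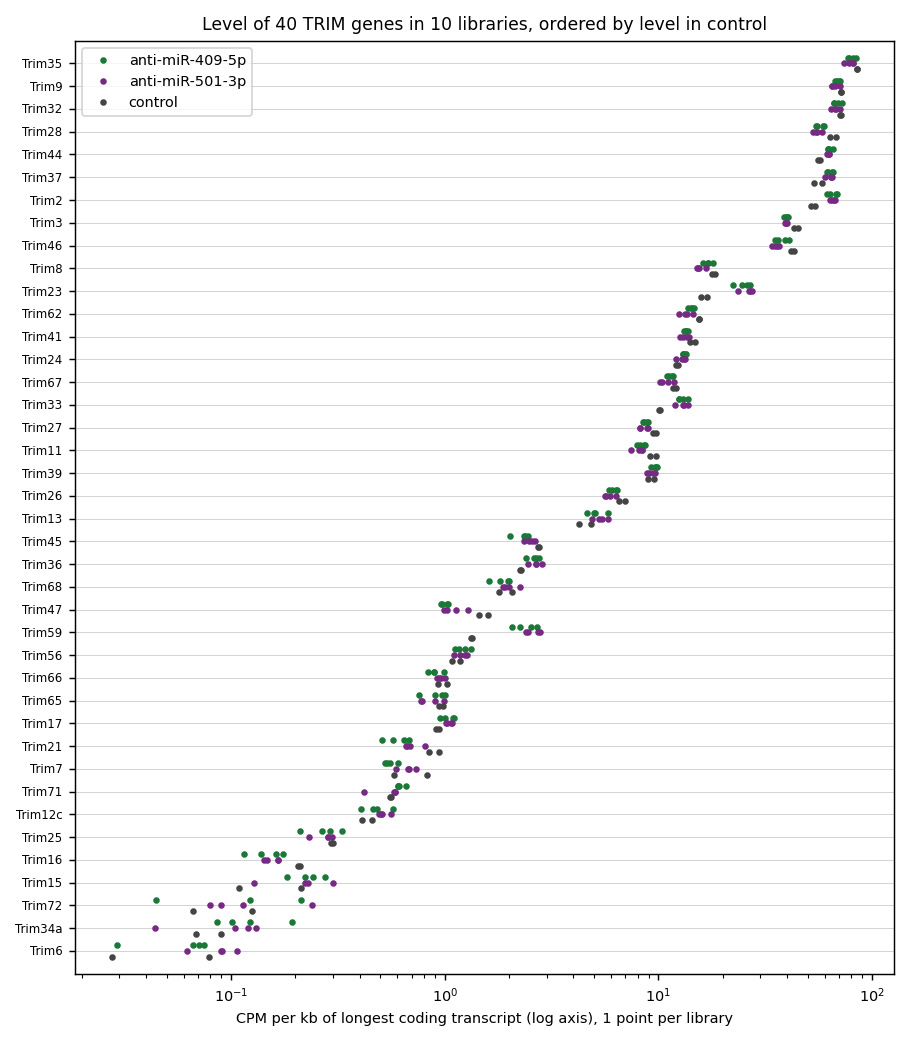
Level of the 40 TRIM genes in CPM per kb of the longest coding transcript (log axis), with 1 point per library and the groups anti-miR-409-5p, anti-miR-501-3p and control drawn from top to bottom in each row. The 9 genes of the upper end exceed 40 CPM per kb in control, and for Trim59 and Trim23 the anti-miR points stand apart to the right of the control points.

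By structural class, all 4 genes of class I (fibronectin and PRY-SPRY domains with a microtubule-binding COS box), all 4 of class VI (PHD and bromodomain), all 4 of class VII (NHL repeats) and all 5 of classes VIII to XI met the count limit. In class IV, the PRY-SPRY proteins that include most antiviral members, 19 of 36 genes met it. None of the 4 genes of classes II and III, which include the muscle ligases Trim54, Trim55 and Trim63, met it. Of the remaining genes, 2 of 6 in class V, 2 of 4 without a RING domain and 0 of 1 without a class met it. The paralogous genes Trim6, Trim12c and Trim34a lie in a run of similar genes on chromosome 7, and since how multi-mapped reads were counted is not given in the sources used here, their counts are uncertain.

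Under anti-miR-409-5p, 14 of 39 tested TRIM genes (35.9%) differed from control at an adjusted p under 0.05 (edgeR quasi-likelihood test, adjusted over 16884 genes), against 27.8% of all tested genes. Of these, 6 rose (Trim59, Trim23, Trim33, Trim2, Trim37 and Trim44; 15.6% of all genes rose) and 8 fell (Trim47, Trim21, Trim45, Trim28, Trim11, Trim46, Trim3 and Trim27; 12.2% of all genes fell). The median log2 fold change of the 39 genes was -0.0671, against -0.0116 over all genes. Without control replicate 1 the call was kept by 5 of the 14 (Trim2, Trim23, Trim33, Trim47 and Trim59), and without control replicate 2 by 8. In those fits the lone control library is assumed to vary like the other groups. Over all genes, 2634 rose and 2062 fell, and with upper-quartile scaling 2233 rose and 3074 fell. The authors' deposited table calls 10 TRIM genes, 6 higher and 4 lower, all of them among the 14. It does not call Trim11, Trim27 and Trim45, and it gives Trim21 a log2 fold change of -0.564 without an adjusted p. DESeq2 did not call Trim11, Trim27 and Trim45.

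Under anti-miR-501-3p, 16 of 39 TRIM genes (41.0%) passed the same test, against 33.0% of all tested genes. Of these, 7 rose (Trim59, Trim23, Trim33, Trim2, Trim36, Trim37 and Trim44; 17.6% of all genes rose) and 9 fell (Trim47, Trim46, Trim28, Trim11, Trim8, Trim62, Trim26, Trim27 and Trim3; 15.4% of all genes fell). The median log2 fold change was -0.0745, against -0.0119 over all genes. Without control replicate 1 the call was kept by 6 of the 16 (Trim2, Trim8, Trim23, Trim33, Trim46 and Trim59), and without control replicate 2 by 10. Over all genes, 2974 rose and 2605 fell, and with upper-quartile scaling 2540 rose and 3607 fell, with 6 TRIM genes higher and 14 lower. The authors' deposited table calls 12 TRIM genes, 6 higher and 6 lower, all of them among the 16, and it does not call Trim26, Trim27, Trim36 and Trim47. DESeq2 did not call Trim26, Trim36 and Trim47. Both comparisons use the same 2 control libraries, so a shared direction is not independent evidence.

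**Figure D2:**
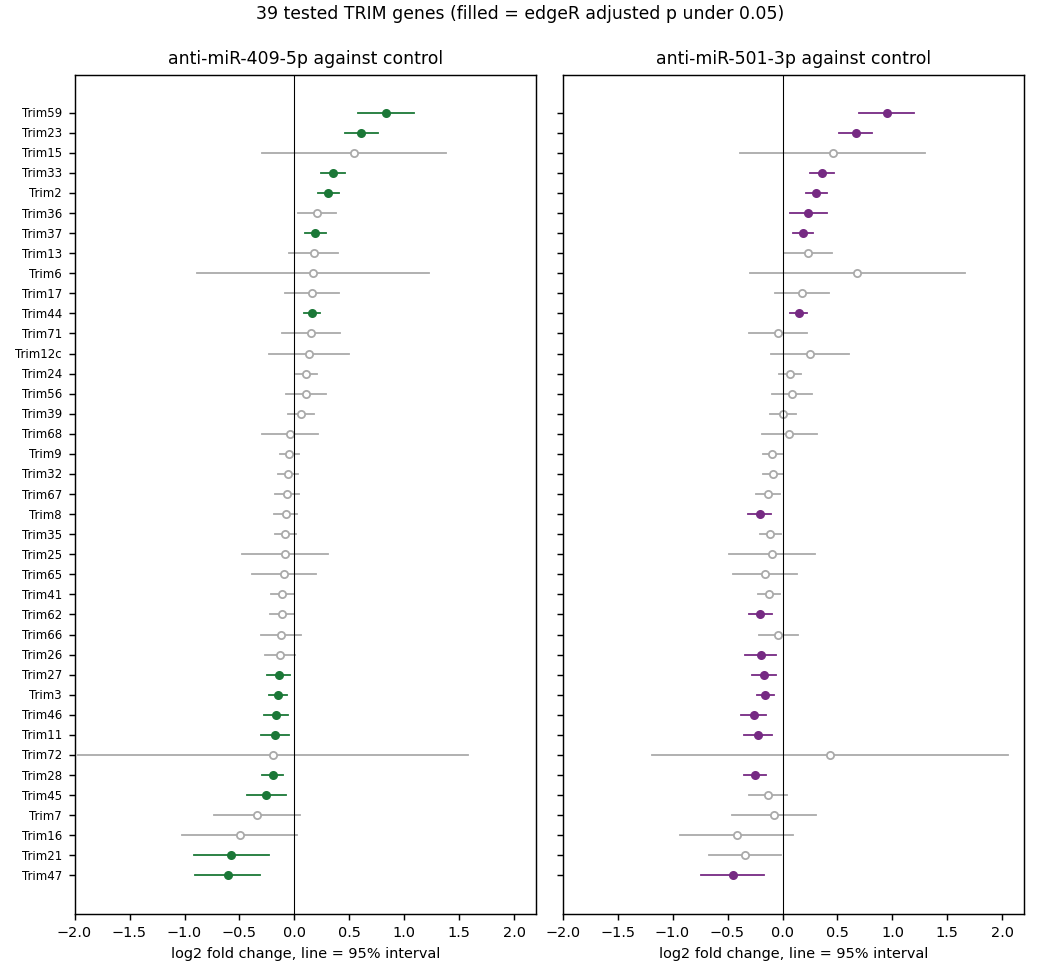
Log2 fold change (x axis) of the 39 tested TRIM genes for anti-miR-409-5p against control (left) and anti-miR-501-3p against control (right), with lines for the 95% interval and filled points for an edgeR adjusted p under 0.05. Trim59 and Trim23 lie farthest to the right among the filled points, and Trim47 farthest to the left.

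The libraries were also compared by overlap. All 4 anti-miR-409-5p libraries lay above both control libraries for 10 of the 40 genes and below both for 14, against 24.0% and 24.0% of all tested genes. For anti-miR-501-3p the counts were 10 above and 16 below, against 24.3% and 25.6% of all tested genes. Among TRIM genes with a mean of at least 10 CPM that did not pass the test, a choice that itself limits their size, log2 fold changes ran between -0.13 and 0.21 under anti-miR-409-5p (12 genes) and between -0.13 and 0.087 under anti-miR-501-3p (9 genes).

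Fold change followed the GC content of the transcript in both comparisons. The control libraries and the anti-miR libraries differed in how expression depended on GC content: relative to the mean of all libraries, log2 expression changed by 0.272 and 0.203 per 10 points of GC in control replicates 1 and 2, and by -0.131 to 0.0384 in the 8 anti-miR libraries. Across 16839 genes with a transcript sequence, Spearman's rho between log2 fold change and GC content was -0.709 under anti-miR-409-5p and -0.713 under anti-miR-501-3p. Across the 39 TRIM genes, which share the same libraries and are not independent, rho was -0.66 and -0.64. TRIM genes that rose had a median GC content of 44.6% under anti-miR-409-5p and 43.8% under anti-miR-501-3p, and those that fell had 56.7% and 58.7%.

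**Figure D3:**
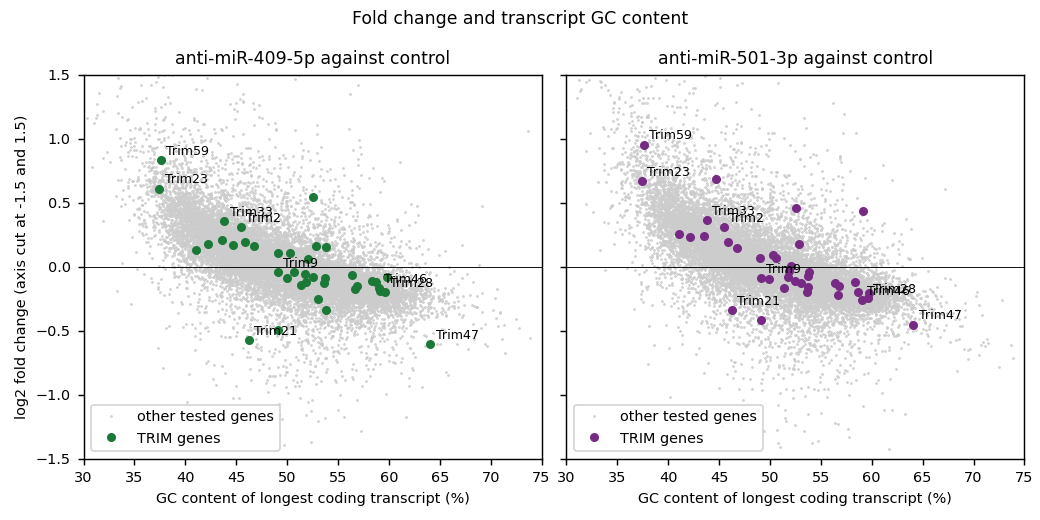
Log2 fold change (y axis, the farthest genes lie outside it) against the GC content of the longest coding transcript in percent (x axis) for anti-miR-409-5p against control (left) and anti-miR-501-3p against control (right), with TRIM genes coloured and other tested genes in grey. Trim59 and Trim23 stand at the low-GC end with positive values and Trim47 at the high-GC end with negative values. Trim21 lies below Trim2, Trim37 and Trim44, which are TRIM genes of similar GC content.

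When the trend of each library on GC content and transcript length was removed, 3 TRIM genes differed from control under anti-miR-409-5p (5.41% of all tested genes did) and 3 under anti-miR-501-3p (8.11% did). Trim2 and Trim33 remained higher under both inhibitors (3.2% of all tested genes were higher under anti-miR-409-5p and 4.76% under anti-miR-501-3p). Trim21 remained lower under anti-miR-409-5p and Trim9 became lower under anti-miR-501-3p (2.21% and 3.35% of all tested genes were lower). The removal may also take away differences that belong to the cells, because GC content and group move together in these libraries. The log2 fold change with the trend removed is given below beside each TRIM gene called against control.

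Among the NHL-repeat genes, Trim2 rose under both inhibitors, Trim3 fell under both, and Trim32 and Trim71 did not pass the test. Trim2 encodes a ubiquitin ligase of neurofilament light chain whose loss causes axon degeneration in mice (ENSMUSG00000027993, chr3:84160439-84306877, minus strand). Its level was 458, 472, 502 and 512 CPM in anti-miR-409-5p libraries, 471, 498, 481 and 494 CPM in anti-miR-501-3p libraries and 384 and 401 CPM in control libraries. All 8 anti-miR libraries lay above both control libraries. The increase was 1.24-fold under each inhibitor (log2 fold change 0.31 ± 0.045 (SE), adjusted p = 0.000138 under anti-miR-409-5p, and 0.31 ± 0.045, adjusted p = 8.35e-05 under anti-miR-501-3p, edgeR). With the trend removed the log2 fold change was 0.16 (adjusted p = 0.000967) under anti-miR-409-5p and 0.17 (adjusted p = 0.000463) under anti-miR-501-3p, both past edgeR's threshold.

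Trim3, a brain-enriched ligase that works with the kinesin Kif21b and acts at the postsynaptic density in rodent neurons, measured 121, 119.7, 122 and 117 CPM in anti-miR-409-5p libraries, 121, 119, 119 and 119 CPM in anti-miR-501-3p libraries and 136 and 130.1 CPM in control libraries. Its anti-miR libraries all lay below its control libraries, at 0.902 and 0.898 of the control level (log2 fold change -0.15 ± 0.038 (SE), adjusted p = 0.00743 under anti-miR-409-5p, and -0.16 ± 0.038, adjusted p = 0.00437 under anti-miR-501-3p, edgeR). Removal of the trend left -0.0018 under anti-miR-409-5p and 0.0049 under anti-miR-501-3p, the second with the opposite sign. Trim32, a ligase linked to neural progenitor differentiation in mice, had 229.7, 221, 212 and 211 CPM in anti-miR-409-5p libraries, 225, 215, 216 and 204 CPM in anti-miR-501-3p libraries and 227 and 228 CPM in control libraries. Here the anti-miR-409-5p libraries overlapped the control libraries, and neither log2 fold change passed the test (-0.060 and -0.084). The stem-cell regulator Trim71 measured 5.68, 5.66, 6.17 and 5.64 CPM in anti-miR-409-5p libraries, 5.49, 5.47, 5.43 and 3.90 CPM in anti-miR-501-3p libraries and 5.16 and 5.24 CPM in control libraries, also without passing the test (0.15 and -0.039).

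In class I, whose members bind microtubules, Trim46 fell under both inhibitors, Trim36 rose under anti-miR-501-3p, and Trim9 and Trim67 did not pass the test. Trim46 bundles microtubules at the axon initial segment. It measured 133, 127, 118 and 114 CPM in anti-miR-409-5p libraries, 117, 119, 114 and 110.0 CPM in anti-miR-501-3p libraries and 141 and 135 CPM in control libraries. Both sets of anti-miR libraries lay below control (log2 fold change -0.17 ± 0.053 (SE), adjusted p = 0.025 under anti-miR-409-5p, and -0.26 ± 0.053, adjusted p = 0.00115 under anti-miR-501-3p, edgeR), and with the trend removed the log2 fold change was 0.0046 under anti-miR-409-5p, with the opposite sign, and -0.071 under anti-miR-501-3p. The annotation places 239 bp of Trim46 exon opposite Krtcap2, and the library kit does not mark strand. Of the other genes with values per library here, Trim9 (249 bp), Trim71 (135 bp) and Trim35 (99 bp) also have exon opposite other genes. Trim36 measured 11.8, 10.9, 12.2 and 12.6 CPM in anti-miR-409-5p libraries, 11.2, 12.2, 13.0 and 12.1 CPM in anti-miR-501-3p libraries and 10.2 and 10.4 CPM in control libraries. Its anti-miR libraries lay above control in every case, but the difference passed the test under anti-miR-501-3p alone (log2 fold change 0.21 ± 0.082 (SE), adjusted p = 0.0704 under anti-miR-409-5p, and 0.24 ± 0.082, adjusted p = 0.034 under anti-miR-501-3p, edgeR), and it was 0.016 and 0.029 with the trend removed.

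Trim9, which binds the netrin receptor Dcc and shapes axon branching in mouse cortical neurons, measured 322, 319, 307 and 314 CPM in anti-miR-409-5p libraries, 323, 305, 297 and 297 CPM in anti-miR-501-3p libraries and 325 and 326 CPM in control libraries. Its anti-miR libraries lay slightly below control, and its log2 fold changes (-0.045 ± 0.040 and -0.092 ± 0.040, SE) did not pass the test. With the trend removed they were -0.078 (adjusted p = 0.233) and -0.12 (adjusted p = 0.0303, edgeR), so that Trim9 passed under anti-miR-501-3p. Trim67, its closest relative, measured 101, 97.4, 95.7 and 103 CPM in anti-miR-409-5p libraries, 103, 96.9, 90.7 and 88.8 CPM in anti-miR-501-3p libraries and 106 and 102 CPM in control libraries. The anti-miR libraries of Trim67 overlapped control and did not pass the test (-0.067 and -0.13).

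In class VI, the chromatin regulators, Trim33 rose and Trim28 fell under both inhibitors, while Trim24 and Trim66 did not pass the test. Trim33 encodes a ligase that acts on SMAD proteins in TGF-beta signalling (ENSMUSG00000033014, chr3:103279293-103358775, plus strand). It measured 111, 111, 115 and 122 CPM in anti-miR-409-5p libraries, 106, 117, 116 and 122 CPM in anti-miR-501-3p libraries and 89.0 and 90.8 CPM in control libraries. No anti-miR library overlapped a control library, and the rise was 1.28-fold under each inhibitor (log2 fold change 0.35 ± 0.053 (SE), adjusted p = 0.000205 under anti-miR-409-5p, and 0.36 ± 0.053, adjusted p = 0.000102 under anti-miR-501-3p, edgeR). Its log2 fold change with the trend removed was 0.15 (adjusted p = 0.00956) and 0.16 (adjusted p = 0.00519), both past edgeR's threshold. With 1 surrogate variable in the fit the adjusted p was 0.00772 under anti-miR-409-5p and 0.0518 under anti-miR-501-3p.

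Trim28 (KAP1) is the corepressor that KRAB zinc finger proteins recruit to silence chromatin. It measured 192, 192, 178 and 178 CPM in anti-miR-409-5p libraries, 189.5, 179, 177 and 171 CPM in anti-miR-501-3p libraries and 219 and 206 CPM in control libraries. All anti-miR libraries lay below control (log2 fold change -0.20 ± 0.047 (SE), adjusted p = 0.00504 under anti-miR-409-5p, and -0.25 ± 0.047, adjusted p = 0.000787 under anti-miR-501-3p, edgeR). Removal of the trend left -0.018 and -0.045, neither past the threshold. Trim24 and Trim66 had log2 fold changes of 0.11 and -0.12 under anti-miR-409-5p and 0.070 and -0.037 under anti-miR-501-3p.

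**Figure D4:**
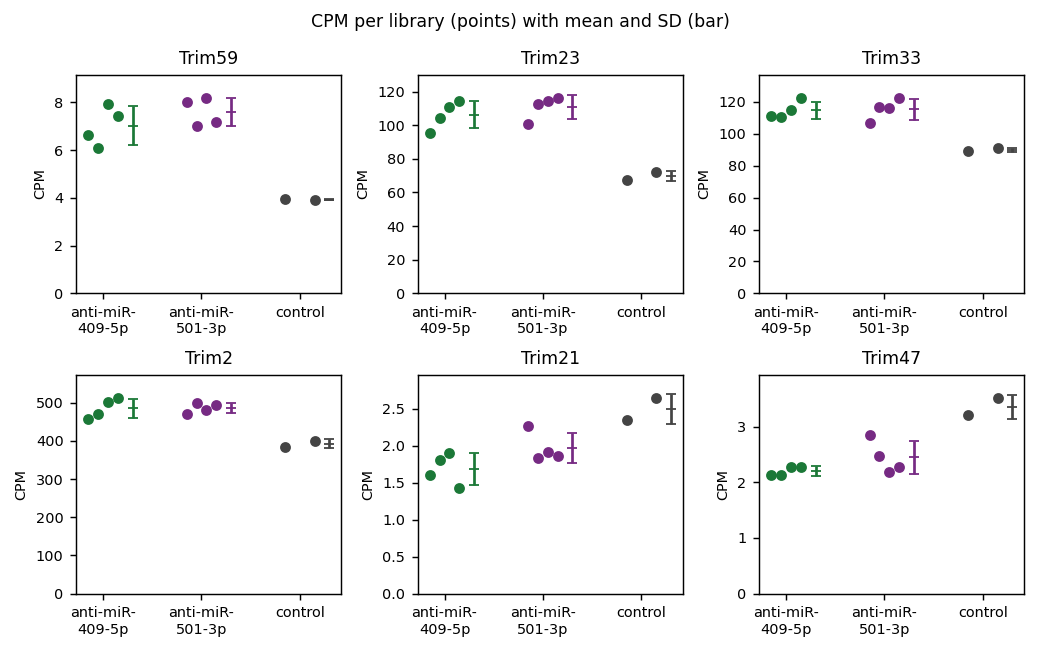
CPM per library (points) with the mean and SD (bar) for Trim59, Trim23, Trim33, Trim2, Trim21 and Trim47, in anti-miR-409-5p, anti-miR-501-3p and control from left to right. All anti-miR libraries lie above both control libraries for Trim59, Trim23, Trim33 and Trim2, and below both for Trim21 and Trim47.

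Among the 5 genes of classes VIII to XI, 3 rose under both inhibitors (Trim59, Trim23 and Trim37), and Trim59 and Trim23 had the largest rises of the TRIM genes that passed the test. Trim59, which encodes a membrane-anchored ligase (ENSMUSG00000034317, chr3:69035288-69044755, minus strand), measured 6.61, 6.10, 7.94 and 7.45 CPM in anti-miR-409-5p libraries, 8.02, 7.03, 8.19 and 7.19 CPM in anti-miR-501-3p libraries and 3.95 and 3.91 CPM in control libraries. Every anti-miR library lay above 6 CPM and both control libraries lay below 4 CPM. The rise was 1.78-fold under anti-miR-409-5p and 1.93-fold under anti-miR-501-3p (log2 fold change 0.83 ± 0.12 (SE), adjusted p = 0.000152 under anti-miR-409-5p, and 0.95 ± 0.12, adjusted p = 2.78e-05 under anti-miR-501-3p, edgeR). With the trend removed the log2 fold change was 0.30 (adjusted p = 0.184) and 0.34 (adjusted p = 0.0936), no longer past edgeR's threshold. Its transcript has 37.6% GC.

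Trim23, a ligase with an ARF GTPase domain that takes part in autophagy (ENSMUSG00000021712, chr13:104178797-104203372, plus strand), measured 95.6, 104, 111 and 115 CPM in anti-miR-409-5p libraries, 101, 113, 114 and 116 CPM in anti-miR-501-3p libraries and 67.6 and 72.0 CPM in control libraries. The groups did not overlap, and the rise was 1.52-fold under anti-miR-409-5p and 1.59-fold under anti-miR-501-3p (log2 fold change 0.61 ± 0.070 (SE), adjusted p = 6.14e-05 under anti-miR-409-5p, and 0.67 ± 0.070, adjusted p = 1.6e-05 under anti-miR-501-3p, edgeR). With the trend removed the log2 fold change was 0.056 (adjusted p = 0.437) and 0.032 (adjusted p = 0.669), and with 1 surrogate variable it was 0.40 and 0.40. Trim23 has the lowest transcript GC content of the 40 genes, 37.4%.

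Trim37, which limits centriole assembly and monoubiquitinates histone H2A, measured 348, 351, 365 and 368 CPM in anti-miR-409-5p libraries, 338, 362, 362 and 367 CPM in anti-miR-501-3p libraries and 300.4 and 327 CPM in control libraries. Its rise was small and without overlap (log2 fold change 0.19 ± 0.044 (SE), adjusted p = 0.0044 under anti-miR-409-5p, and 0.19 ± 0.044, adjusted p = 0.00362 under anti-miR-501-3p, edgeR), and with the trend removed it was 0.064 and 0.060. Trim45, a ligase with a filamin repeat, measured 9.30, 10.9, 10.8 and 11.3 CPM in anti-miR-409-5p libraries, 10.8, 11.4, 11.8 and 12.2 CPM in anti-miR-501-3p libraries and 12.7 and 12.6 CPM in control libraries. Its anti-miR libraries lay below control, and the difference passed the test under anti-miR-409-5p (-0.26 ± 0.083, adjusted p = 0.0288) and not under anti-miR-501-3p (-0.13 ± 0.082, adjusted p = 0.246, edgeR). The call for Trim45 under anti-miR-409-5p was lost with the trend removed, where the log2 fold change was -0.19 (edgeR adjusted p = 0.245), and also with DESeq2, without either control library and without replicate 1 or replicate 3 of anti-miR-409-5p. With 1 surrogate variable the fall of Trim45 under anti-miR-409-5p was -0.41 and passed edgeR's threshold (adjusted p = 0.0182). Under anti-miR-501-3p the value for Trim45 with the trend removed was -0.045. Trim13, an endoplasmic reticulum ligase, had log2 fold changes of 0.17 and 0.23, neither past the threshold.

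Of the genes without a RING domain, Trim44 rose under both inhibitors. It measured 348, 348, 351 and 367 CPM in anti-miR-409-5p libraries, 346, 352, 353 and 349 CPM in anti-miR-501-3p libraries and 313 and 319.6 CPM in control libraries. Control lay below every anti-miR library (log2 fold change 0.16 ± 0.036 (SE), adjusted p = 0.00333 under anti-miR-409-5p, and 0.15 ± 0.036, adjusted p = 0.00457 under anti-miR-501-3p, edgeR), and with the trend removed the log2 fold change was 0.055 and 0.043. Trim16 had -0.50 and -0.42 at under 1 CPM and did not pass the test. In class V, Trim8, a regulator of cytokine signalling, measured 64.4, 60.9, 58.0 and 61.1 CPM in anti-miR-409-5p libraries, 59.7, 54.6, 55.7 and 54.0 CPM in anti-miR-501-3p libraries and 63.6 and 65.7 CPM in control libraries. It fell under anti-miR-501-3p (-0.21 ± 0.050, adjusted p = 0.00451) and not past the threshold under anti-miR-409-5p (-0.080 ± 0.050, adjusted p = 0.253, edgeR). Its value with the trend removed was -0.0050 under anti-miR-501-3p and 0.10 under anti-miR-409-5p.

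In class IV, 0 of 18 tested genes rose, 4 fell under anti-miR-409-5p (Trim47, Trim21, Trim11 and Trim27) and 5 fell under anti-miR-501-3p (Trim47, Trim11, Trim62, Trim26 and Trim27). Of all tested genes, 15.6% rose and 12.2% fell under anti-miR-409-5p, and 17.6% rose and 15.4% fell under anti-miR-501-3p. When the trend was removed, 0 class IV genes rose, 1 fell under anti-miR-409-5p (Trim21) and 0 fell under anti-miR-501-3p. The median log2 fold change of the class as measured was -0.101 and -0.104. Trim47 (ENSMUSG00000020773, chr11:116105752-116127210, minus strand) measured 2.13, 2.13, 2.27 and 2.28 CPM in anti-miR-409-5p libraries, 2.85, 2.48, 2.18 and 2.27 CPM in anti-miR-501-3p libraries and 3.20 and 3.51 CPM in control libraries. Every anti-miR library lay below both control libraries (log2 fold change -0.61 ± 0.14 (SE), adjusted p = 0.00396 under anti-miR-409-5p, and -0.45 ± 0.14, adjusted p = 0.016 under anti-miR-501-3p, edgeR). After removal of the trend it was -0.36 and -0.16, past neither threshold. Trim47 shares 225 bp of exon with Trim65 on the same strand, and Trim65 had log2 fold changes of -0.091 and -0.16 without passing the test.

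Trim21, a cytosolic antibody receptor that directs antibody-bound virus to degradation (ENSMUSG00000030966, chr7:102557921-102565486, minus strand), measured 1.61, 1.81, 1.91 and 1.43 CPM in anti-miR-409-5p libraries, 2.26, 1.83, 1.91 and 1.86 CPM in anti-miR-501-3p libraries and 2.35 and 2.64 CPM in control libraries. Each anti-miR library lay below both control libraries, at 42 to 65 counts in the anti-miR libraries against 66 and 79 counts in control. The fall passed the test under anti-miR-409-5p (-0.57 ± 0.16, adjusted p = 0.0136) and not under anti-miR-501-3p (-0.34 ± 0.16, adjusted p = 0.102, edgeR), and the difference between the inhibitors did not pass the test (-0.23 ± 0.14). The fall was larger with the trend removed, -0.66 (adjusted p = 0.0167) and -0.44 (adjusted p = 0.102). Without either control library the fall under anti-miR-409-5p did not pass edgeR's threshold.

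The other falls in class IV were smaller. Trim11, a ligase with roles in protein quality control, measured 30.5, 30.2, 28.0 and 28.9 CPM in anti-miR-409-5p libraries, 29.6, 28.6, 29.6 and 26.3 CPM in anti-miR-501-3p libraries and 34.5 and 32.0 CPM in control libraries. The groups did not overlap (log2 fold change -0.18 ± 0.060 (SE), adjusted p = 0.0364 under anti-miR-409-5p, and -0.22 ± 0.060, adjusted p = 0.00893 under anti-miR-501-3p, edgeR). Trim27 measured 38.1, 38.4, 36.8 and 36.4 CPM in anti-miR-409-5p libraries, 38.2, 35.4, 35.5 and 38.5 CPM in anti-miR-501-3p libraries and 42.0 and 40.7 CPM in control libraries, also without overlap (log2 fold change -0.14 ± 0.051 (SE), adjusted p = 0.0428 under anti-miR-409-5p, and -0.17 ± 0.051, adjusted p = 0.0191 under anti-miR-501-3p, edgeR). Trim62 measured 55.3, 53.7, 53.3 and 51.9 CPM in anti-miR-409-5p libraries, 54.2, 50.1, 46.8 and 50.9 CPM in anti-miR-501-3p libraries and 57.8 and 58.3 CPM in control libraries. Its fall passed the test under anti-miR-501-3p (-0.20 ± 0.052, adjusted p = 0.00653) and not under anti-miR-409-5p (-0.12 ± 0.052, adjusted p = 0.101, edgeR). Trim26, a regulator of interferon induction, measured 20.4, 20.5, 19.5 and 18.8 CPM in anti-miR-409-5p libraries, 20.3, 18.2, 18.02 and 19.0 CPM in anti-miR-501-3p libraries and 22.3 and 21.05 CPM in control libraries, with -0.20 ± 0.066 (adjusted p = 0.0284) under anti-miR-501-3p and -0.13 ± 0.066 (adjusted p = 0.152, edgeR) under anti-miR-409-5p. Against control, the values with the trend removed were (anti-miR-409-5p before anti-miR-501-3p) -0.036 and -0.070 for Trim11, -0.11 and -0.12 for Trim27, 0.048 and -0.017 for Trim62, and -0.036 and -0.091 for Trim26. None of these 4 genes then passed the threshold.

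Trim35, the TRIM gene of highest level per kb in control and also of class IV, measured 309, 301, 287 and 283 CPM in anti-miR-409-5p libraries, 301, 299, 288 and 272 CPM in anti-miR-501-3p libraries and 313 and 312 CPM in control libraries. Its anti-miR libraries lay below control by less than the test could call (-0.084 ± 0.045 and -0.11 ± 0.045, adjusted p = 0.18 and 0.068, edgeR). Trim25, a ligase of the RNA sensor RIG-I, had -0.086 and -0.10, and Trim56, another innate immune ligase, of class V, had 0.10 and 0.087. None of these 3 genes passed the test.

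**Figure D5:**
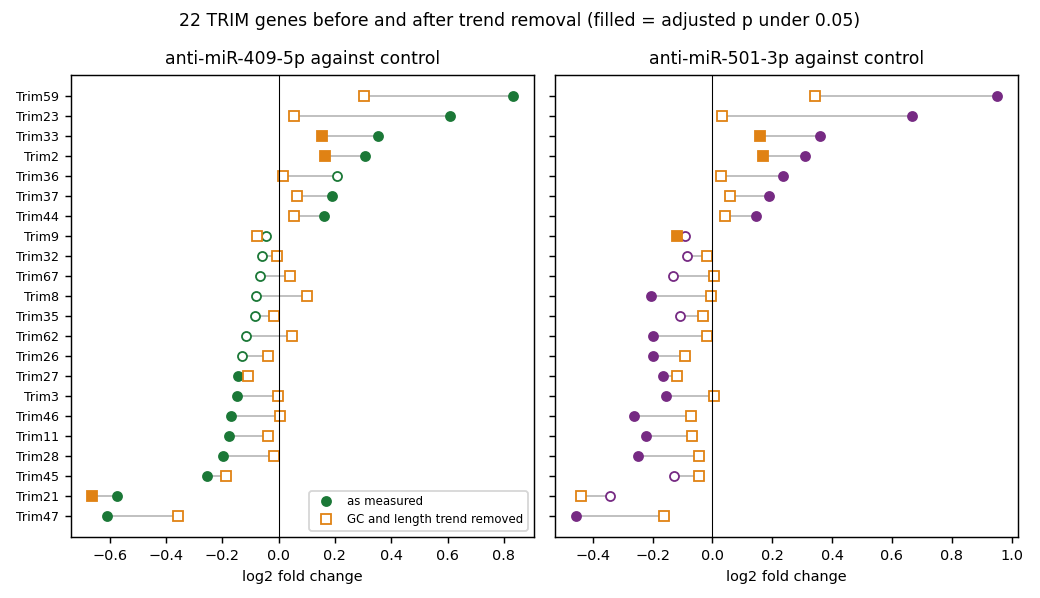
Log2 fold change (x axis) of 22 TRIM genes as measured (circles) and with the trend on GC content and length removed (squares), for anti-miR-409-5p against control (left) and anti-miR-501-3p against control (right). Filled symbols have an edgeR adjusted p under 0.05, and of the squares these are Trim33, Trim2 and Trim21 on the left and Trim33, Trim2 and Trim9 on the right.

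The inhibitors were also compared with each other. For anti-miR-409-5p against anti-miR-501-3p, 0 of 39 TRIM genes differed at an adjusted p under 0.05 (edgeR), against 0.0% of all tested genes. At an unadjusted p under 0.05 there were 2 TRIM genes and 992 genes in all, and DESeq2 called 0 TRIM genes and 3 genes in all. The TRIM genes were Trim8, with a log2 difference of 0.13 ± 0.042 (unadjusted p = 0.00698, edgeR), and Trim46, with 0.10 ± 0.044 (unadjusted p = 0.0416, edgeR). For the 18 genes called against control under either inhibitor, the difference between inhibitors lay between -0.23 and 0.13 and its 95% intervals ran from -0.53 to 0.21. Trim71 was the 1 gene of 40 whose groups did not overlap, with all 4 anti-miR-409-5p libraries above all 4 anti-miR-501-3p libraries, against 1.65% of all tested genes, and no gene had them below (1.84% of all tested genes).

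Genes outside the symbol rule were examined from lists of related genes. Of 4 tested TRIM proteins with other symbols, Mid2 rose under both inhibitors (0.31 and 0.37, edgeR adjusted p = 0.00633 and 0.00155) and was 0.053 and 0.089 with the trend removed. Of 18 tested partners and substrates of TRIM proteins, 3 rose (Nefl, Smad4 and Cbx5) and 2 fell (Dtnbp1 and Kif21b) under anti-miR-409-5p (15.6% and 12.2% of all tested genes did), and the same 3 rose and 3 fell (Irf3, Kif21b and Vasp) under anti-miR-501-3p (17.6% and 15.4% did). With the trend removed, 2 rose and 1 fell under each inhibitor, and none of the falls just named passed. Of all tested genes, 3.2% then rose and 2.21% fell under anti-miR-409-5p, and 4.76% rose and 3.35% fell under anti-miR-501-3p. The gene that fell under anti-miR-409-5p was Dcc (-0.21, edgeR adjusted p = 0.0018), which did not pass as measured (-0.032, edgeR adjusted p = 0.623). Nefl, the neurofilament light chain that Trim2 targets and also 1 of the neuron markers below, averaged 542.6 CPM under anti-miR-409-5p, 556.8 CPM under anti-miR-501-3p and 467.3 CPM in control. Its log2 fold change was 0.22 and 0.25, and 0.19 and 0.23 with the trend removed, each past edgeR's threshold. Smad4, a target of Trim33, rose by 0.23 and 0.21, and by 0.22 and 0.20 with the trend removed, each past the threshold as well. Cbx5, a heterochromatin protein that binds Trim28, rose by 0.27 and 0.24, and was 0.022 and -0.024 with the trend removed.

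Since class IV is known for members that respond to interferon, 13 tested genes of the interferon response were read beside them. For anti-miR-409-5p, Rsad2 rose (0.76, adjusted p = 0.035, edgeR) at about 1 CPM, and none passed the test under anti-miR-501-3p. Of all tested genes, 27.8% passed under anti-miR-409-5p and 33.0% under anti-miR-501-3p. With the trend removed, 0 of the 13 genes passed under either inhibitor. The summed level of all 17 listed genes, tested or not, was 81.5 to 84.5 CPM under anti-miR-409-5p, 82.5 to 88.2 CPM under anti-miR-501-3p and 82.0 and 84.2 CPM in control. Stat2 had the most counts of the list in control (1400 and 1552), while Isg15 had 7 and 8 and Ifit1 had 5 and 5. The sum therefore says little about genes with such low counts.

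The cultures carried markers of neurons and of other cells. Summed over 8 neuron markers, the level was 6478 to 6811 CPM under anti-miR-409-5p, 6372 to 6772 CPM under anti-miR-501-3p and 6151 and 6244 CPM in control, with 4 markers higher and 4 lower under each inhibitor (edgeR). Over 8 astrocyte markers it was 2342 to 2430 CPM, 2249 to 2363 CPM and 2339 to 2379 CPM. Over 10 microglia and macrophage markers, of which 6 were tested and none changed, it was 17.4 to 19.6 CPM, 18.7 to 22.3 CPM and 18.9 to 20.8 CPM, in the same order of groups. Oligodendrocyte markers summed to 419.9 to 519.7 CPM, 351 to 499.6 CPM and 456 to 636 CPM, markers of endothelial, mural and fibroblast cells to 369 to 488 CPM, 471 to 589 CPM and 400.0 to 575 CPM, and markers of proliferating progenitors to 216 to 257 CPM, 173 to 235 CPM and 188 to 257 CPM. The higher neuron markers were Map2, Snap25, Dcx and Nefl, and the lower ones were Rbfox3, Tubb3, Syp and Syn1, under each inhibitor. Of the astrocyte markers, 3 rose (Aqp4, Gja1 and Slc1a3) and 1 fell (Aldh1l1) under anti-miR-409-5p, and 2 rose (Aqp4 and Gja1) and 3 fell (Aldh1l1, Aldoc and S100b) under anti-miR-501-3p. Of the 8 oligodendrocyte markers, 0 changed under anti-miR-409-5p, and 1 rose (Mog) and 1 fell (Olig1) under anti-miR-501-3p. Of 10 tested endothelial, mural and fibroblast markers, 1 fell under anti-miR-409-5p (Pdgfrb) and 2 rose under anti-miR-501-3p (Dcn and Kdr). Of 7 progenitor markers, 2 rose under anti-miR-409-5p (Sox2 and Ccnb1) and 1 rose under anti-miR-501-3p (Sox2). Of all tested genes, 15.6% rose and 12.2% fell under anti-miR-409-5p, and 17.6% rose and 15.4% fell under anti-miR-501-3p. With the trend removed, 2 neuron markers were higher and 0 lower under each inhibitor. Besides these, 1 astrocyte marker was then higher under anti-miR-409-5p, and 1 endothelial, mural or fibroblast marker under anti-miR-501-3p. No other marker of these lists then passed. In such bulk samples fewer cells of a type and less RNA per cell cannot be told apart, and the part of cell makeup in the TRIM differences was not tested.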

How the data were processed

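Polyadenylated RNA of 10 libraries was measured with the TruSeq RNA kit v2 and 50 bp single-end reads, per the labels' protocols. The submitters' processing notes name build mm10, STAR 2.5.2b, Subread 1.5.1 with featureCounts, and FastQC 0.11.5. The annotation release, the strand setting and how multi-mapped reads were counted are not given in the sources used here. The authors deposited unnormalized counts for each Ensembl gene in 1 table a library. The authors also deposited 1 table per inhibitor against control, with log2 fold changes, p-values, a test statistic that is treated as a score, and a normalized signal per library, per the file headers. The tool behind these tables is not stated, and only their calls were compared.

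From the counts, symbols were matched by Ensembl identifier (48349 of 48709). Genes were filtered with filterByExpr (16884 tested), scaled by TMM and tested with edgeR 4.0.16 (quasi-likelihood, robust, two-sided, prior count of 2 for log2 CPM) in 1 fit of all 10 libraries and 3 groups without covariates, with Benjamini-Hochberg adjustment over all tested genes at 0.05. On simulated counts without a GC trend, the fit recovered 64.9% to 74.0% of changes of 0.5 log2 and 79.8% to 92.0% of changes of 1. It made 10 to 13 false calls among 16706 to 16726 genes. Smaller changes, such as those of most TRIM genes called here, and a GC trend that differs between groups were not simulated. Trim34a did not pass the filter. Totals ran from 22254788 to 32096808 counts, and counting error is largest for genes with few counts. Alternatives were DESeq2 1.42.0, other scalings, no filter, the groups compared alone, a replicate block, 1 surrogate variable (sva 3.50.0), each library left out, and removal of each library's spline trend (5 degrees of freedom) on transcript GC content and log length, values known for 99.7% of tested genes. Transcripts, coordinates and 3' UTRs came from GENCODE M21 (GRCm38). The TRIM genes, the lists, the tests and the alternatives were chosen with earlier results of these data known. Values per library are given for genes past the threshold against control, the 5 genes of highest level per length in control, and Trim2, Trim3, Trim9, Trim32, Trim46 and Trim67. Trim71 was added after its values were seen. A planned promoter motif search is not reported here.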

Additional observations from a re-analysis of the deposited data

Results flagged for a closer look

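In 3 of 80 groups of 4 libraries, 1 library stood apart from the other libraries by Dixon's test, and chance flags about 1 in 20. Trim6 was at 0.112 CPM in anti-miR-409-5p replicate 1, the lowest, with the nearest library at 0.254 CPM. Trim71 was at 6.17 CPM in anti-miR-409-5p replicate 3, the highest, with the nearest at 5.68 CPM. Trim71 was also at 3.90 CPM in anti-miR-501-3p replicate 4, the lowest, with the nearest at 5.43 CPM.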

How the results depend on the processing

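With 1 surrogate variable, 5 TRIM genes were called for anti-miR-409-5p against control (Trim2, Trim23, Trim33, Trim45 and Trim59). For anti-miR-501-3p against control 3 were called (Trim2, Trim23 and Trim59), and the genes called in all were 936 and 692. The variable was 0.624 and 0.328 in the control libraries and -0.357 to 0.256 in the anti-miR libraries. It may therefore also take away differences between the groups. With the trend on GC content and length removed, the counts were 3 and 3 TRIM genes and 913 and 1370 genes. Leaving out each library in turn gave 5 to 14 and 6 to 19 TRIM genes, and 1302 to 5111 and 1800 to 6075 genes. The lowest of these counts came without control replicate 1. Between the inhibitors, where edgeR called 0 TRIM genes and 0 genes, the count of genes was 3 with DESeq2, 42 with no filter, 1 with only the 2 groups, 11 with a surrogate variable, 1 with the trend removed and 0 to 1 with a library left out, and the TRIM count was 0 in each of these. With the replicate number as a block, Trim8 was called between the inhibitors (1 TRIM gene, 252 genes), and Trim11 against control under anti-miR-409-5p and Trim26 and Trim36 under anti-miR-501-3p were lost, while Trim24 was gained under anti-miR-409-5p. Replicate numbers were examined in deviations of log2 CPM from the mean of each library's own group, not in the levels themselves. In these deviations, same-numbered anti-miR libraries correlated at 0.0639 to 0.174. Counting each pair from both sides, 8 of 8 correlated best with their own number among libraries of the other inhibitor, a hint from the data. But not every pair exceeded 0.1 and the numbers were not taken as pairs. Among the genes named by rule, log2 fold changes that changed sign against control were, with the trend removed, Trim3 at 0.00489 under anti-miR-501-3p, Trim8 at 0.0998, Trim46 at 0.00455, Trim62 at 0.0477 and Trim67 at 0.0403 under anti-miR-409-5p, and Trim67 at 0.00459 under anti-miR-501-3p. With a surrogate variable they were Trim8 at 0.0175, Trim35 at 0.0171, Trim9 at 0.0351, Trim32 at 0.0383 and Trim67 at 0.0384 under anti-miR-409-5p, and Trim35 at 0.0164, Trim9 at 0.0089, Trim32 at 0.0394 and Trim67 at 0.000412 under anti-miR-501-3p. Trim6, Trim7, Trim12c, Trim13, Trim25, Trim39, Trim41, Trim66, Trim68, Trim71 and Trim72, none of them past the threshold against control, also changed sign in 1 or both of these settings under at least 1 inhibitor. The cause of these changes was not tested. Counting TRIM genes with at least 1 count in any library gave 64 in place of 40, and 10 or more counts in all 10 libraries gave 36. Genes under 1 CPM, such as Trim6, Trim15 and Trim72, have intervals too wide to show a difference.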
